A study of Rattus norvegicus with 42 samples.

Results

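Glycolysis enzymes and the lactate dehydrogenases were followed in whole blood of 42 male Sprague-Dawley rats, through every probe set of an Affymetrix Rat Genome array whose annotated symbol is Hk1, Hk2, Hk3, Gpi, Pfkl, Aldoa, Pgk1, Eno1, Ldha or Ldhb. Of these 10 genes, 9 had a probe set and no probe set carried the symbol Hk3. The 9 genes had 15 probe sets among 31099 on the array. The array's own hexokinase controls make up 3 of the 15 and are given as levels only, which leaves 12 among the 31042 probe sets tested. A log2 value of at least 4 as the mean over all arrays was reached by 9 of the 12, from 8 genes. The other 3 were dim, with means of 3.00 (Pgk1, 1368906_at), 2.46 (Hk2, 1369006_at) and 2.03 (Hk1, 1398725_at), and say little about these genes.

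The rats, 280 to 350 g in weight, formed 7 groups of 6. Naive rats had no procedure before the blood draw, and anesthesia rats had anesthesia without arterial occlusion or drug. The remaining control group received tissue plasminogen activator (tPA, a protease that dissolves clots and is the drug given in ischemic stroke) without middle cerebral artery occlusion (MCAO). Neither the labels nor the methods state whether this tPA without MCAO group was anesthetised when dosed. MCAO, an arterial block by an intraluminal suture that serves as a model of ischemic stroke, lasted 2 h before the suture was withdrawn in the reperfused-MCAO group and lasted until the blood draw in the permanent-MCAO group. Each of these was studied without tPA and with it (3.3 mg/kg recombinant human tPA into the peritoneum at 3 h). Blood was drawn at 24 h in every group, so a single time and a single dose are covered. For this draw the methods have the animals under isoflurane and make no exception for naive rats. Anesthesia against naive therefore concerns the earlier anesthesia.

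Glycolysis splits glucose to pyruvate in the cytosol and yields ATP without oxygen. Mature red cells, which lack mitochondria, live on it, and neutrophils rely on it heavily. Lactate dehydrogenase, which turns pyruvate and lactate into each other, is a tetramer of Ldha (the M subunit, abundant in skeletal muscle) and Ldhb (the H subunit, abundant in heart) chains. Blood RNA is a mixture, so fewer cells of a type and less RNA per cell cannot be told apart in any result here.

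Some arrays stood apart from the rest. The mean log2 value of 14 hybridization control probe sets (bioB, bioC and bioD, spiked into each sample in a fixed amount) was 11.2 ± 0.747 (SD, n = 6) in the tPA without MCAO group, with replicate 2 lowest at 9.72, and 12.2 ± 0.221 in the anesthesia group. These groups did not overlap in it, with 9.72 to 11.69 against 11.79 to 12.37. A fit of these groups with the control level as a covariate therefore cannot tell that level from the group. The same 6 tPA arrays had a higher summed linear signal of 16 T cell markers, 28499 to 39672 against 15346 to 22135 with anesthesia. Their summed signal of 15 erythroid and reticulocyte markers was lower, 30267 to 78343 against 86669 to 114083. All 15 erythroid markers, 14 of which had a mean of at least log2 4, had lower means than with anesthesia, and all 16 T cell markers had higher means. These values belong beside each result of the tPA without MCAO group, and their part in those results was not tested.

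**Figure D1:**
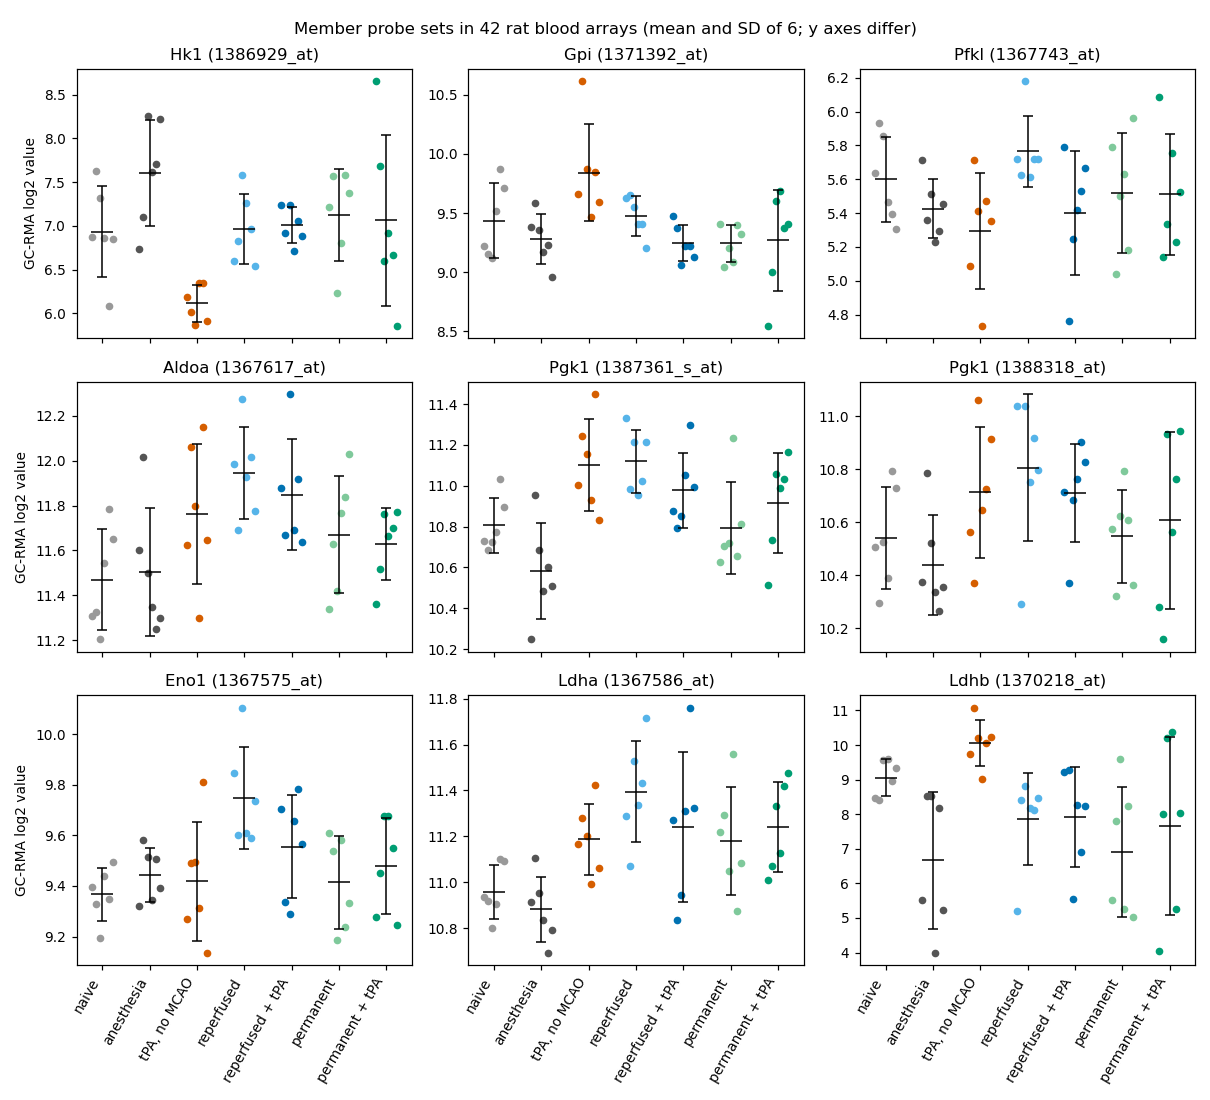
GC-RMA log2 values (y axis, a different range in each panel) of the 9 member probe sets with a mean of at least log2 4 in 7 groups (x axis); points are arrays, black marks the mean and SD of 6. Hk1 is at most 6.35 in all 6 arrays of tPA without MCAO, and Ldha and Pgk1 (1387361_s_at) are higher with reperfused-MCAO than with anesthesia. Ldhb has at least 1 array below log2 6 in 5 of the groups, and only 1 in each reperfused-MCAO group.

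Hk1, the hexokinase of red cells and many other tissues, phosphorylates glucose at the start of the pathway. Its bright probe set (1386929_at) had log2 values of 6.73, 7.66 and 8.25 (lowest, median and highest of 6 rats) in the anesthesia group and 5.87, 6.10 and 6.35 in the tPA without MCAO group. Every rat given tPA without MCAO lay below every anesthesia rat. The mean fell by 1.49 log2 (SE 0.25, limma adjusted p = 0.00886), which is 2.81-fold. With the hybridization control level as a covariate the difference was -1.21 log2 and the call held, though these groups did not overlap in that level. When each of the 12 arrays was left out in turn the difference lay between -1.67 and -1.36. Against naive rats, a comparison added after the values were seen, Hk1 was lower by a smaller amount, -0.82 log2 (SE 0.22, adjusted p = 0.126), with overlapping ranges, and was called at the study's thresholds only. That call was lost with the control level as a covariate (-0.58 log2).

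In the other groups Hk1 overlapped widely. Naive rats had 6.08, 6.87 and 7.63, reperfused-MCAO rats 6.54, 6.90 and 7.58, and reperfused-MCAO + tPA rats 6.72, 6.99 and 7.24. Permanent-MCAO rats had 6.23, 7.29 and 7.58, and permanent-MCAO + tPA rats 5.86, 6.79 and 8.66, the widest range of any group. No comparison other than those with the tPA without MCAO group called Hk1. Reperfused-MCAO differed from anesthesia by -0.64 log2 (SE 0.28) and permanent-MCAO by -0.48 (SE 0.31).

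Hk1 ran with the erythroid markers from array to array. Over 42 arrays Pearson's r between Hk1 and the mean log2 value of the erythroid and reticulocyte markers was 0.76 and Spearman's rho 0.88 (both permutation p = 1e-05, the smallest 100000 permutations can give, adjusted p = 2e-05 over 4 relations computed). Without the 2 arrays farthest from the median on the marker axis r was 0.86. After removal of each group's mean r was 0.62, and within single groups of 6 it was positive in 7 of 7, from 0.45 to 0.96. The hybridization control level ran with Hk1 as well, with r = 0.68 and rho = 0.83 (both permutation p = 1e-05, adjusted p = 2e-05), 0.77 without the 2 farthest arrays and 0.48 after removal of group means. The permutations ignored the groups, so these p-values also take in differences between group means. No p was computed after removal of group means.

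The array's hexokinase controls probe 3 stretches of the Hk1 messenger. The 3′ probe set had means of 5.50 ± 1.14 (SD, n = 6) with anesthesia and 3.73 ± 0.520 with tPA without MCAO, and 4.78 to 4.85 in the other 5 groups. Across all arrays the 5′ probe set averaged 2.83 and the middle one 2.13, near the floor of the scale. The 5′ probe set reached 4.47 with reperfused-MCAO and 3.99 with anesthesia and with permanent-MCAO + tPA. It was at most 2.69 in naive rats and with tPA without MCAO. The 3′ minus 5′ difference of this messenger was not read as a sign of RNA length. For Gapdh, from the array's controls, the log2 difference between the 3′ and 5′ probe sets, a sign of RNA length, was 1.54 ± 0.235 with anesthesia and 1.72 ± 0.230 with tPA without MCAO, and no test was made. Hk2, the hexokinase of muscle and fat, had values from 2.41 to 2.62 in all 42 arrays and showed no level to compare.

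Gpi, which turns glucose 6-phosphate into fructose 6-phosphate, was measured by 1 probe set (1371392_at). Values were 8.96, 9.30 and 9.58 with anesthesia and 9.47, 9.75 and 10.62 with tPA without MCAO, so the lowest tPA array lay within the anesthesia range. The difference of 0.56 log2 (SE 0.18, adjusted p = 0.0653) missed the threshold. Reperfused-MCAO gave 9.20, 9.48 and 9.65 and differed from anesthesia by 0.19 (SE 0.11, adjusted p = 0.373).

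Pfkl, the liver-type subunit of phosphofructokinase, commits the sugar to glycolysis. With anesthesia it had 5.23, 5.40 and 5.71, and with reperfused-MCAO 5.61, 5.72 and 6.18, replicate 3 being the high one. The reperfused-MCAO group was higher by 0.34 log2 (SE 0.11, adjusted p = 0.153), past the study's thresholds and not past the adjustment, and the call was lost in 9 of 12 omissions of 1 array and in 7 of 9 other settings. Reperfused-MCAO + tPA had 4.76, 5.47 and 5.79, a difference from reperfused-MCAO of -0.36 (SE 0.17, adjusted p = 0.542).

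Aldoa, the muscle-type aldolase that is also that of red cells, splits the 6-carbon sugar. It had 11.25, 11.42 and 12.02 with anesthesia and 11.69, 11.96 and 12.28 with reperfused-MCAO, with overlap through 1 high anesthesia array. The difference was 0.44 log2 (SE 0.14, adjusted p = 0.143), and 9 of 12 omissions of 1 array and 5 of 9 other settings lost the call. Permanent-MCAO rats had 11.34, 11.70 and 12.03 and differed from anesthesia by 0.17 (SE 0.15, adjusted p = 0.971).

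Pgk1, which makes the first ATP of the pathway, had 2 bright probe sets. The first (1387361_s_at) had 10.25, 10.56 and 10.96 with anesthesia, 10.83, 11.08 and 11.45 with tPA without MCAO, and 10.95, 11.12 and 11.33 with reperfused-MCAO. The highest anesthesia array, replicate 2, reached the lowest arrays of both other groups. It rose by 0.52 log2 with tPA without MCAO (SE 0.13, adjusted p = 0.0270) and by 0.54 with reperfused-MCAO (SE 0.11, adjusted p = 0.0332). The first of these calls was lost when the control level was a covariate (0.53 log2) and at a fold of 1.5, and against naive rats the difference was 0.30 (SE 0.10, adjusted p = 0.139), not called. The second (1388318_at) moved the same way by less, 0.27 (SE 0.12, adjusted p = 0.151) and 0.37 (SE 0.13, adjusted p = 0.212), and was not called in either. Its suffix marks the first probe set as one that can also read near-identical transcripts, so its values may not be those of Pgk1 alone.

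Eno1, the enolase found in most cells, had 9.32, 9.45 and 9.58 with anesthesia and 9.59, 9.67 and 10.11 with reperfused-MCAO, and the groups did not overlap. The difference was 0.30 log2 (SE 0.09, adjusted p = 0.122), called at the study's thresholds only, and 6 of 12 omissions of 1 array and 5 of 9 other settings lost it. Permanent-MCAO rats, with 9.19, 9.43 and 9.61, lay about where the anesthesia rats did (-0.03, SE 0.08, adjusted p = 0.995).

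**Figure D2:**
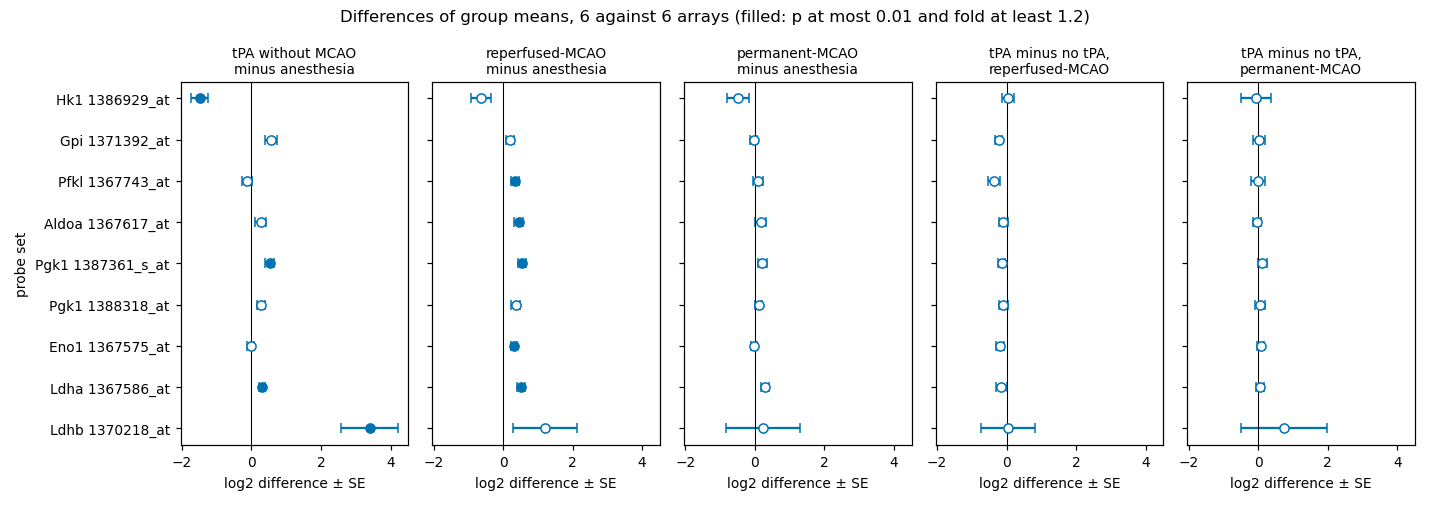
Differences between group means on the log2 scale (x axis, with SE, 6 against 6 arrays) of the 9 brighter member probe sets (y axis) in 5 comparisons; filled points pass the study's p and fold thresholds. There are 4 filled points for tPA without MCAO, 5 for reperfused-MCAO and none in the other panels, and the bar of Ldhb is the widest in each.

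Ldha and Ldhb are shown with the 120 bases before each transcription start, from RefSeq on GRCr8, because they are the pair set against each other below. Capitals mark ACGTG or GCGTG on either strand (so CACGT or CACGC as well), the core letters bound by hypoxia-inducible factors.
Ldha, chr1:106507972-106508091, plus strand: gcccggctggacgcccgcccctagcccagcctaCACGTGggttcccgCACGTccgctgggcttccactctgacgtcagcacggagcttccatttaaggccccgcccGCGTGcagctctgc
Ldhb, chr4:177177409-177177528, minus strand: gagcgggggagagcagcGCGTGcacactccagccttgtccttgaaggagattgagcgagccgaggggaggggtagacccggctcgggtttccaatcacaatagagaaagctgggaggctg
The Ldha stretch holds the letters 4 times, starting 87, 86, 73 and 14 bases before the start (the first 2 overlap as both strands of 1 CACGTG), and the Ldhb stretch once, at 103. In the same window 23.0% of all 33469 promoters listed hold them. Of the member genes, 9 had an entry and 4, Ldha, Ldhb, Eno1 and Hk3, held the letters there in at least 1 entry. These 9 genes had 13 entries, so this count of genes cannot be set against the share of promoters. A match describes letters and is not evidence of binding.

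Ldha (1367586_at) had 10.69, 10.87 and 11.11 with anesthesia, 10.80, 10.93 and 11.10 in naive rats, and 10.99, 11.18 and 11.42 with tPA without MCAO. With reperfused-MCAO it had 11.07, 11.38 and 11.71, and with reperfused-MCAO + tPA 10.83, 11.29 and 11.76. Permanent-MCAO gave 10.88, 11.15 and 11.56, and permanent-MCAO + tPA 11.01, 11.23 and 11.47. The 2 controls without tPA were the lowest groups and reperfused-MCAO the highest, and the ranges of neighbours in that order overlapped.

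Against anesthesia, Ldha rose by 0.51 log2 with reperfused-MCAO (SE 0.10, adjusted p = 0.0308), the smallest p of any member there. It rose by 0.30 with tPA without MCAO (SE 0.08, adjusted p = 0.0377), a call lost without tPA replicate 5 (0.26 log2) and in 5 of 9 other settings. These were median centring (0.25 log2), array weights (0.28), removal of dim probe sets, a fold of 1.5, and the control level as a covariate (0.26). Against naive rats Ldha was higher by 0.23 (SE 0.08, adjusted p = 0.133), not called. With permanent-MCAO the difference was also 0.30 (SE 0.11) but was not called (adjusted p = 0.441).

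Ldhb (1370218_at) was the most variable member, with an SD of 1.88 log2 over 42 arrays against 0.21 to 0.66 for the other 8 bright probe sets. Values ran from 4.00 to 11.08, and none lay between 5.55 and 6.90. Below log2 6, a level set after the values were seen, lay 10 of 42 arrays. These were 3 of 6 with anesthesia, 3 of 6 with permanent-MCAO, 2 of 6 with permanent-MCAO + tPA, and 1 of 6 in each reperfused-MCAO group. No naive rat and no rat given tPA without MCAO was among them.

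The anesthesia rats, in order of replicate, had Ldhb values of 5.53, 8.51, 8.52, 4.00, 8.18 and 5.23. Those given tPA without MCAO had 9.75, 11.08, 10.21, 9.02, 10.06 and 10.23. All 6 of the latter lay above all 6 of the former. The difference was 3.40 log2 (SE 0.82, adjusted p = 0.0257), 10.5-fold, and it was 2.95 once the control level entered as a covariate, where the call was lost. Naive rats had 8.46, 8.40, 9.57, 9.59, 8.97 and 9.33. Measured from naive rats, tPA without MCAO was higher by 1.00 log2 (SE 0.34, adjusted p = 0.134), 2.00-fold, with overlap, and was not called, so the size of the Ldhb difference depends on which control is used. The anesthesia group was lower than naive by 2.39 log2 (SE 0.80, adjusted p = 0.940), which was not called. For Ldhb the means of groups with arrays on both sides of log2 6 say little of any single rat.

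Ldhb minus Ldha was then taken in each array, which leaves out what shifts both probe sets alike. Over all arrays Ldhb had an SD of 1.88 log2 and Ldha 0.25. The difference therefore mostly restates Ldhb and is not a separate result, and both genes' earlier results were known when it was chosen. The levels of different probe sets cannot be set against each other, so only changes of this difference between groups are read. It was -4.22 ± 1.94 log2 (SD, n = 6) with anesthesia, -1.90 ± 0.562 in naive rats and -1.13 ± 0.606 with tPA without MCAO. It was -3.53 ± 1.28 with reperfused-MCAO and -3.33 ± 1.52 with tPA added, and -4.28 ± 2.02 with permanent-MCAO and -3.59 ± 2.55 with tPA added.

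**Figure D3:**
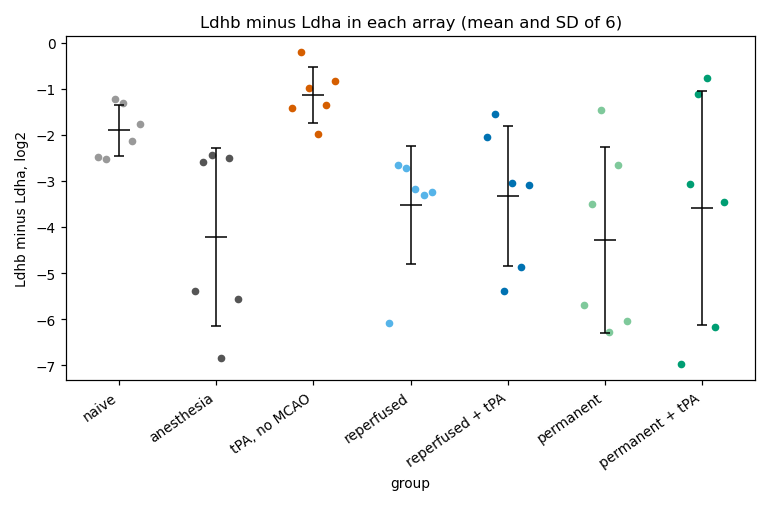
Ldhb minus Ldha on the log2 scale (y axis) in each array of 7 groups (x axis); points are arrays, black marks the mean and SD of 6. The 6 arrays of tPA without MCAO, from -1.98 to -0.19, lie above all 6 anesthesia arrays, from -6.84 to -2.44. Reperfused-MCAO arrays without tPA, from -6.09 to -2.66, stay within the anesthesia range. Each other MCAO group has arrays in both ranges.

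In tPA without MCAO the difference was 3.09 log2 above that in anesthesia, with no overlap (two-sided exact permutation p = 0.00217, the smallest that dividing 12 rats into 6 and 6 allows, adjusted p = 0.0130 over 6 comparisons). Anesthesia was 2.32 below naive (exact p = 0.0108, adjusted p = 0.0325), with overlap. Leaving out single arrays took the second of these past an adjusted p of 0.05 in 8 of 12 omissions, those of anesthesia replicates 1, 2, 4 and 6 and naive replicates 3, 4, 5 and 6, and the first in none. The other 4 comparisons gave exact permutation p from 0.511 to 0.952. These were tPA in reperfused-MCAO (0.20), tPA in permanent-MCAO (0.69), reperfused-MCAO against anesthesia (0.69) and permanent-MCAO against anesthesia (-0.06).

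Counted over the 12 tested probe sets, reperfused-MCAO without tPA against anesthesia called 5, all higher (Ldha, Pgk1 1387361_s_at, Eno1, Aldoa and Pfkl). Of all probe sets tested, 6.00% were called in that comparison and 4.09% were called and higher. After adjustment 2 members passed (Ldha and Pgk1), against 2.11% of all probe sets. The median log2 difference was 0.32 over the 12 and -0.02 over all probe sets. In the same comparison all 9 neutrophil markers measured were higher, by a median of 1.31 log2, and 4 were called. Their summed linear signal ran from 16516 to 48362 against 11823 to 21362 with anesthesia. All 9 monocyte markers were higher as well (median 0.43, 3 called), as were all 10 platelet markers (median 0.50, 2 called) and all 9 NK and cytotoxic cell markers (median 0.71, 5 called). Other lists went lower, with 14 of 15 erythroid and reticulocyte markers below anesthesia (median -0.24, 2 called). So were 13 of 16 T cell markers (median -0.14, 0 called) and all 5 B cell markers (median -0.18, 0 called). The part of these cell markers in the members' result was not tested.

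Across arrays Ldha and the neutrophil marker mean had r = 0.42 and rho = 0.39 (permutation p = 0.00528 and 0.0124, adjusted p = 0.00704 and 0.0165), with r = 0.47 without the 2 farthest arrays. After removal of group means r was 0.18, and within groups it ran from -0.44 to 0.63 and was positive in 5 of 7. For Pgk1 (1387361_s_at) r was 0.41 and rho 0.33 (permutation p = 0.00735 and 0.0359, the same after adjustment), 0.38 without the 2 farthest arrays, 0.28 after removal of group means, and from -0.44 to 0.88 within groups. As for Hk1, these permutations ignored the groups, and no p was computed after removal of group means.

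**Figure D4:**
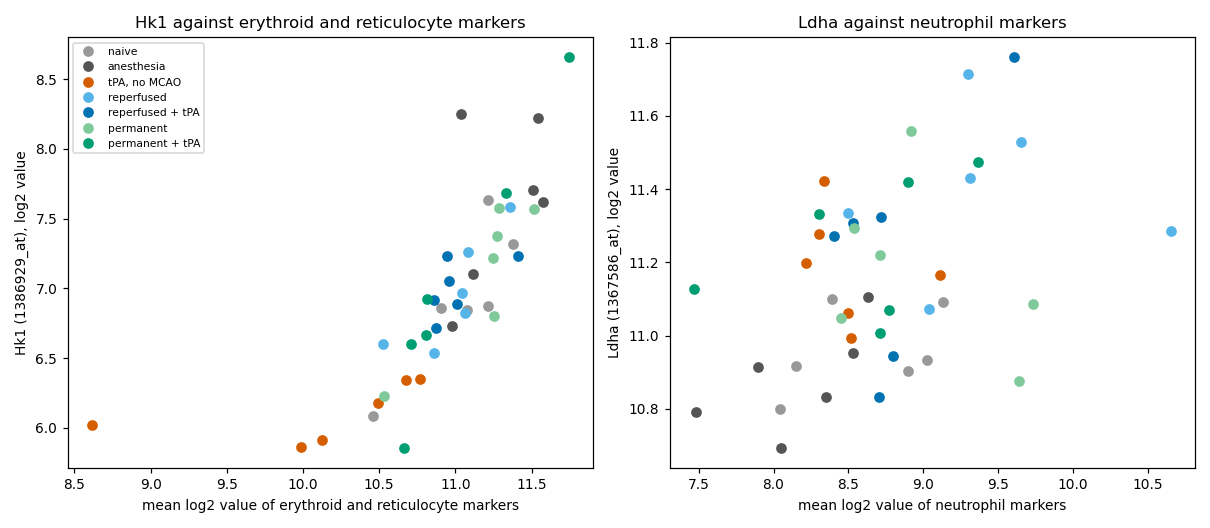
Left, Hk1 against the mean log2 value of erythroid and reticulocyte markers; right, Ldha against that of neutrophil markers; each point is 1 of 42 arrays, coloured by group. Hk1 climbs with the erythroid mean (r = 0.76, and 0.62 within groups), while the looser relation of Ldha to the neutrophil mean (r = 0.42) falls to 0.18 within groups.

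Permanent-MCAO without tPA against anesthesia called none of the 12 in limma, against 2.78% of all probe sets. Only Ldha had an unadjusted p under 0.05, and the methods' test, a linear model without shared variance, also called 0. The difference between both MCAO groups without tPA, a comparison added after the values were seen, called 1 member (Eno1, 0.33 log2 higher with reperfused-MCAO, SE 0.11, adjusted p = 0.565), against 0.709% of all probe sets. In 8 of 12 omissions of 1 array that call was lost. For Ldha the difference was 0.21 (SE 0.13), for Pgk1 (1387361_s_at) 0.33 (SE 0.11), for Aldoa 0.28 (SE 0.13) and for Pfkl 0.25 (SE 0.16), and none was called. The 8 bright probe sets other than that of Hk1 had higher means with reperfused-MCAO than with permanent-MCAO, while a difference between the MCAO kinds was not called for 4 of the 5 members called against anesthesia.

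In tPA without MCAO against anesthesia, 4 of the 12 were called. Of all probe sets 13.7% were called. The 3 higher ones were Ldhb, Pgk1 and Ldha (9.15% of all probe sets were called and higher), and the lower one was Hk1 (4.59%). All 4 passed the adjustment, as did 12.5% of all probe sets. The median of the 12 was 0.13 log2, that of all probe sets -0.01. With naive rats as the control 1 member was called, Hk1, against 5.19% of all probe sets, and none passed the adjustment. An unadjusted p under 0.05 was reached there by 5 of the 12.

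No member was called for tPA in reperfused-MCAO, where 0.722% of all probe sets were, or in permanent-MCAO, where 0.322% were. By limma 1 member (Gpi, -0.23 log2, SE 0.09, adjusted p = 0.542) had an unadjusted p under 0.05 in reperfused-MCAO and 0 did in permanent-MCAO, and the methods' test called 0 in each. The difference between both tPA effects called 0 members, against 0.296% of all probe sets, with 0 at an unadjusted p under 0.05 and 0 by the methods' test. Anesthesia against naive called 0, against 0.821%, with 1 (Ldhb) at an unadjusted p under 0.05 and 0 by the methods' test.

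In the fit of all 42 arrays, whose model has tPA, stroke (either MCAO), anesthesia (all groups except naive) and the product of tPA and stroke, tPA called 2 of 12. These were Ldhb, higher by 1.90 log2 (SE 0.56, adjusted p = 0.0450), and Hk1, which fell by 0.75 (SE 0.19, adjusted p = 0.0189). Of all probe sets 6.91% were called and higher and 5.05% called and lower. After adjustment 4.36% passed, and 3 members did, Pgk1 (1387361_s_at, 0.26) at a fold of 1.19 beside Ldhb and Hk1. The tPA term averages the effects without and with MCAO, and the first of these is tPA without MCAO minus anesthesia. With that tPA group coded as not anesthetised Ldhb was 0.70 higher, not called, and Hk1 fell by 0.42, still called. With the hybridization control level as a covariate Ldhb was still called and Hk1 was not. In the 4 MCAO groups alone Ldhb differed by 0.39 and Hk1 by -0.01 with tPA, and neither was called.

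For the stroke term, 0 of 12 members were called by limma, against 15.4% of all probe sets. It gives equal weight to MCAO against anesthesia and to MCAO + tPA against tPA without MCAO. The tPA without MCAO arrays thus serve in it as a control, and it is not MCAO against anesthesia alone. An unadjusted p under 0.05 was reached by 2 (Gpi and Ldha), and the methods' test called 0. Gpi was lower by 0.25 (SE 0.10), with means of 9.28 with anesthesia, 9.84 with tPA without MCAO and 9.24 to 9.48 in the MCAO groups. After adjustment Ldha passed (0.23, SE 0.07, adjusted p = 0.0487), at a fold of 1.17, as did 7.86% of all probe sets.

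The interaction, the tPA effect with MCAO minus that without, called 5 of 12, against 21.0% of all probe sets. It was 1.48 log2 for Hk1 (SE 0.38, adjusted p = 0.0126), -0.53 for Pgk1 (1387361_s_at, SE 0.15, adjusted p = 0.0256) and -0.66 for Gpi (SE 0.20, adjusted p = 0.0322). These 3 passed the adjustment, as did 9.47% of all probe sets. For Ldhb it was -3.003 (SE 1.13, adjusted p = 0.0786) and for Ldha -0.35 (SE 0.15, adjusted p = 0.111). Each term takes tPA without MCAO minus anesthesia from the mean tPA difference in the MCAO groups, so the anesthesia arrays weigh as much as the tPA arrays. Of the 5 only Pgk1 was still called once the control level was a covariate.

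Other genes of the pathway were counted from lists written with earlier results of these data known. Of 22 further glycolysis genes 18 had a probe set with their symbol alone and were counted, and 10 of these had a mean of at least log2 4. With reperfused-MCAO against anesthesia 2 of the 18 were called (6.00% of all probe sets were), both higher, Tpi1 (triose phosphate isomerase) by 0.64 log2 and Pgam1 (phosphoglycerate mutase) by 0.44. Permanent-MCAO also called these 2, at 0.60 and 0.30, and Adpgk, which phosphorylates glucose with ADP, at -0.74, where 2.78% of all probe sets were called. With tPA without MCAO 4 were called, against 13.7% of all probe sets. Pfkp (platelet-type phosphofructokinase) was higher by 0.64, Eno2 by 0.52 and Pgam1 by 0.40, while Pklr, the pyruvate kinase of liver and red cells, fell by 1.28. Eno2 and Pklr were dim, with means over all arrays of 3.20 and 3.92, and say little. Medians over the 18 were 0.07, 0.05 and 0.25 log2 in that order, beside -0.02, 0.00 and -0.01 for all probe sets.

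Transport of glucose and lactate and the entry of pyruvate into mitochondria were read from 15 genes. Slc16a3, a carrier that exports lactate from glycolytic cells, rose by 1.31 log2 with reperfused-MCAO (SE 0.26, adjusted p = 0.0301). Slc2a1, the glucose transporter GLUT1, was called higher (0.90, adjusted p = 0.122) and Mpc2, a subunit of the mitochondrial pyruvate carrier, lower (-0.58, adjusted p = 0.117), which made 3 of 15, against 6.00% of all probe sets. With tPA without MCAO 6 of 15 were called and passed the adjustment, against 13.7% and 12.5% of all probe sets. The higher ones were Pdk2 (0.89) and Pdhb (0.41). The lower ones were Pdk3 (-1.46), the lactate carrier Slc16a1 (-1.08), Mpc2 (-0.99) and Bsg (-0.56), the chaperone of these lactate carriers. Permanent-MCAO called 1 of 15, Slc2a1, at 0.43, against 2.78%.

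Among 11 genes of the pentose phosphate and glycogen routes, Pgm1 (phosphoglucomutase) and Pgd (a dehydrogenase of the pentose phosphate route) were called with reperfused-MCAO and with tPA without MCAO, each against anesthesia, and were the 2 called in each. They were higher with reperfused-MCAO by 0.53 and 0.65 log2, and with tPA without MCAO by 0.81 and 0.49. Permanent-MCAO called 0 of the 11. These comparisons share the anesthesia rats.

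Likeness to the lactate dehydrogenases was taken as Pearson's r over 42 arrays among 7965 genes with a mean of at least log2 4, as a description. Closest to Ldhb were Npepl1 (0.71), Rilpl2 (0.70), Uqcrc2 (0.70), Hpcal1 (0.69), Cep57l1 (0.68) and Prps2 (0.68). These 6 spanned 1.46 to 2.58 log2 units over the arrays, while Ldhb spanned 7.09. Closest to Ldha were Rab7a (0.79), Fermt3 (0.78), Pgk1 (0.77), Rnasek (0.77), Card19 (0.77) and Atrn (0.76). One of these is a member, Pgk1, and no gene is in both sets.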

How the data were processed

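Whole blood RNA was amplified with a NuGEN Ovation kit and hybridised to 1 array per rat. The authors deposited log2 expression values made with GC-RMA in Partek Genomics Suite, per the methods and the submitters' processing notes. Array medians lay between 3.05 and 3.26. The scans were not used here, and the number of arrays limits precision. Symbols came from the probe annotation updated with the GRCr8 gene table. All 57 control probe sets were left out of tests.

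Comparisons were fitted in limma 3.58.1 (R 4.3.3, statmod 1.5.0) on all 31042 other probe sets, with Benjamini-Hochberg adjustment over them. A call needed a fold of 1.2 or more together with the study's limit on p, which is 0.05 for the 42-array fit and 0.01 for smaller ones. The adjusted threshold (0.05) was used without a fold. Fits were tested on simulated data. Ldhb minus Ldha was tested by exact permutation. Python 3.11.15, numpy 2.4.6, pandas 2.3.3, scipy 1.17.1 and matplotlib 3.10.9 served for the rest. Each gene outside the members was read from its probe set of highest mean; all member probe sets were named, and of other pathway genes at most the 6 with the smallest p per comparison and list. The members and lists were chosen with earlier results of these data known. Alternatives were other scalings, covariates, tests, filters, codings and omission of each array. For rats sharing a replicate number, r of deviations from the group means ran from -0.49 to 0.35 in 48 pairs and was over 0.1 in 14. For tPA in both MCAO kinds it was over 0.1 in replicates 2, 3 and 6 and not in replicates 1, 4 and 5. No test of this was made. The numbers were not taken as pairs, and a replicate block was among the alternatives.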

Additional observations from a re-analysis of the deposited data

Results flagged for a closer look

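In 5 of 70 groups of 6 arrays (9 member probe sets and Ldhb minus Ldha in 7 groups) 1 array lay far from the other 5 for the range of its group, and chance gives about 1 in 20. These arrays had Gpi at 10.62 with tPA without MCAO (replicate 2, also lowest in hybridization control level), Ldhb at 5.20 and Ldhb minus Ldha at -6.09 with reperfused-MCAO (both replicate 1), Pfkl at 6.18 with reperfused-MCAO, and Pgk1 (1387361_s_at) at 11.24 with permanent-MCAO. Ldhb minus Ldha mostly restates Ldhb, so its flag is not a separate one and the 70 groups are not independent. The interaction was called at the study's thresholds for 5 of the 12 member probe sets, against 21.0% of all probe sets. These were Hk1 (1.48 log2), Gpi (-0.66), Pgk1 (1387361_s_at, -0.53), Ldha (-0.35) and Ldhb (-3.003), and the last 2 did not pass the adjustment. The term takes in tPA without MCAO minus anesthesia, and whether that tPA group was anesthetised is not stated.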

How the results depend on the processing

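Counts of the 12 member probe sets called moved as follows. The share of all probe sets called in each setting is not given here, so these moves are not read as particular to the members. With the control level as a covariate they were 1 for tPA, 1 for stroke and 1 for the interaction. They were 1 for tPA without MCAO, where that level cannot be told from the group, and 3 for reperfused-MCAO. With tPA without MCAO coded as not anesthetised they were 1, 1 and 2 for tPA, stroke and the interaction, and the 4 MCAO groups alone gave 0 for tPA. Quantile scaling gave 1 for stroke. A fold of 1.5 gave 3 for the interaction, 2 for tPA without MCAO, and 0 for reperfused-MCAO and for reperfused-MCAO against permanent-MCAO. For reperfused-MCAO the methods' test gave 3, an intensity trend 3, removal of dim probe sets 2 and a replicate block 3. These 4 settings gave 0 for reperfused-MCAO against permanent-MCAO. For anesthesia against naive the trend, array weights and removal of dim probe sets gave 1 each. For tPA without MCAO against naive (1), quantile scaling gave 3, the trend and removal of dim probe sets 2 each, and the covariate and the replicate block 0 each. Some counts rose by less: quantile scaling gave 3 for tPA and 7 for the interaction, array weights 6 for the interaction, and the trend 5 for tPA without MCAO.

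Leaving out 1 array gave 2 to 4 for tPA, 0 to 1 for stroke, 4 to 7 for the interaction, 3 to 5 for tPA without MCAO, 2 to 6 for reperfused-MCAO, 0 to 1 for permanent-MCAO, 0 to 2 for anesthesia against naive, 0 to 2 for reperfused-MCAO against permanent-MCAO, 1 to 3 for tPA without MCAO against naive, 0 to 1 for tPA in reperfused-MCAO, and 0 to 0 for tPA in permanent-MCAO and for the difference of the tPA effects. Ldhb minus Ldha then ran from 2.57 to 3.45 for tPA without MCAO, -2.67 to -1.79 for anesthesia against naive, -0.31 to 0.61 for tPA in reperfused-MCAO, 0.12 to 1.36 for tPA in permanent-MCAO, 0.168 to 1.203 for reperfused-MCAO and -0.62 to 0.35 for permanent-MCAO. Quantile scaling took anesthesia against naive to -2.26 (adjusted exact p = 0.0519). With the replicate number as a block (exact sign-flip test over 6 pairs) the adjusted exact p was 0.0938 for tPA without MCAO (3.09) and for anesthesia against naive (-2.32). Before adjustment both had the smallest p that 6 pairs allow, 0.03125, so this test could go no lower and says nothing about their stability. Each lactate dehydrogenase has 1 probe set, so a mean over probe sets changed nothing. No called member changed direction under any alternative run, and the cause of lost calls was not tested.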
